A study of Homo sapiens with 23 samples.

Results

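The tubulins and neuronal cytoskeleton genes described here are 60 of the 9497 genes that every RNA-seq table of the series listed. They were chosen by name: all alpha, beta and gamma tubulins, stathmins, neurofilament subunits, microtubule-associated proteins (MAPs), doublecortins, collapsin response mediator proteins (CRMPs), GAP43, CAMSAP proteins and the KIF1, KIF5 and KIF21 name groups of kinesins. 5 mitotic kinesins that the tables also listed were left out by name. The RNA came from thalamus organoids (ThOs), spherical cultures of human pluripotent cells patterned towards the thalamus, at days 25 and 30 of culture. ThOs labelled WT came from unedited cells of the human embryonic stem cell line H1, those labelled KO from H1 cells edited with CRISPR-Cas9 in JUN (which encodes c-JUN, one of the proteins that pair up to form the transcription factor AP-1), and those labelled OE from KO cells carrying a tet-on c-JUN construct switched on with doxycycline. All groups shared neural induction with inhibitors of BMP and TGF-beta signalling and a ROCK inhibitor, thalamus patterning with BMP7 and a MEK inhibitor, and later medium with BDNF and ascorbic acid. Each of the 6 groups held 2 libraries, each made from 3 pooled ThOs. More than 1 KO clone is described for the study, and which clone gave which library was not given in the sources used here, nor was whether the WT and KO cultures received doxycycline.

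Microtubules are polar tubes built from pairs of alpha and beta tubulin, and in neurons they fill axons and dendrites, carry motor traffic and hold the shape of the cell. Gamma tubulin and its ring complex start new microtubules, stathmins take up free tubulin pairs, MAPs and doublecortins bind and steady the tube, EB proteins (the MAPRE genes) track its growing end, and CAMSAP proteins cap the other end. Neurofilaments are the intermediate filaments that fill maturing axons, kinesins are the motors, and CRMPs and GAP43 act in the growth cone, the moving tip of a growing axon. Antibodies to the product of TUBB3 (TUJ1) and MAP2 are in wide use to stain neurons.

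The 60 genes comprised 3 alpha tubulins, 7 beta tubulins, 6 genes of gamma tubulin and its ring complex, 3 doublecortins, 4 stathmins, 3 neurofilament subunits, 9 structural MAPs, 2 light chain 3 genes, 6 microtubule end proteins, 6 growth cone and CRMP genes and 11 kinesins. All 60 positions overlapped the RefSeq entry of the same symbol on GRCh38.p14. TUBA1A and TUBA1B lay 53.3 kb apart on chromosome 12, and TUBA1A overlapped the 5′ part of the annotated TUBA1C on the other strand. TUBB2A and TUBB2B lay 65.8 kb apart on chromosome 6. These tubulin genes code for near-identical proteins, so reads may have been split between TUBA1A, TUBA1B and TUBA1C, and between TUBB2A, TUBB2B and the other beta tubulins, in a way that was not given in the sources used here. 14 of the 60 genes overlapped another listed gene on the opposite strand (for example TUBB with MDC1, TUBB6 with AFG3L2 and TUBGCP4 with TP53BP1). The library kit marks strand, and whether the counting used it was not given.

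Because c-JUN is part of AP-1, the 250 bases before the RefSeq start of transcription were read for 48 of the 60 genes. 3 motifs were searched on both strands: the AP-1 letters TGANTCA, the cyclic AMP response element (CRE) TGACGTCA, and the TATA letters TATAAA. 4 promoters are shown, in lower case with any match in capitals. GAP43 and KIF21A are among the genes named below for the size of their differences, and TUBB3 was the neuronal marker of the study. TUBB2A had day 30 libraries above the day 25 libraries in all 3 genotypes. The 4 were not drawn to represent the 48 genes, whose shares of matches follow the sequences. These 4 promoters lie on GRCh38.p14 at chr3:115623260-115623509 (plus strand, GAP43), chr12:39443121-39443370 (minus strand, KIF21A), chr6:3157545-3157794 (minus strand, TUBB2A) and chr16:89921675-89921924 (plus strand, the first of 2 listed starts of TUBB3).
GAP43: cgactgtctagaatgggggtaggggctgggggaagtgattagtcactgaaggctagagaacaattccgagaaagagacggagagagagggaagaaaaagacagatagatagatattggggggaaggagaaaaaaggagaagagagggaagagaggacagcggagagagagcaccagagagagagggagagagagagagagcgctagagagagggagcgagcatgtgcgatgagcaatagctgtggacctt
KIF21A: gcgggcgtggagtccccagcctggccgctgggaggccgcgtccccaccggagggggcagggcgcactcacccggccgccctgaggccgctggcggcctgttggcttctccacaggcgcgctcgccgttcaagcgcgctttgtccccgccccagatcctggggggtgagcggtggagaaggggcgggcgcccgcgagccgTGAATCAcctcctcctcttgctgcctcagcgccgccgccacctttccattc
TUBB2A: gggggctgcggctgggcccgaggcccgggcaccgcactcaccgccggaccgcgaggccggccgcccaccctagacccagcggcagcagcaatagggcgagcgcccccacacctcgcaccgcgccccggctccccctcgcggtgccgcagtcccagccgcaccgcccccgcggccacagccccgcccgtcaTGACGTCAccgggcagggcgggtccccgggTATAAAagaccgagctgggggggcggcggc
TUBB3: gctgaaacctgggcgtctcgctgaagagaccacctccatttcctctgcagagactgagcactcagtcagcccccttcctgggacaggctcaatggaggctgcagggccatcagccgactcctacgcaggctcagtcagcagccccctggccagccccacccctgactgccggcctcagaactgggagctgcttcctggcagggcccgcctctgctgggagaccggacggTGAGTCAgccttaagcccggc
The AP-1 letters began 51 bases before the KIF21A start and 21 bases before this TUBB3 start, the CRE and TATA letters 60 and 30 bases before the TUBB2A start, and the GAP43 window held none of the 3. By the deposited gene positions the KIF21A window (gene 39293228 to 39443390) and the TUBB3 window (gene 89921392 to 89938761) lie inside the gene. For these 2 genes the letters thus precede a RefSeq start but not the deposited one. Over all listed starts, 5 of the 48 genes held the AP-1 letters (10.4%; DCLK1, KIF21A, MAPRE1, MAPRE3 and TUBB3), against 8.06% of 27305 genes with a promoter and 5.77% of the 7817 among them in the RNA-seq tables. The CRE letters stood in 5 of the 48 (10.4%; KIF1A, KIF5C, MAPRE2, TUBB2A and TUBGCP2), against 2.03% and 3.82%. The TATA letters stood in 4 of the 48 (8.33%; DCX, MAP1B, MAPRE1 and TUBB2A), against 13.0% and 7.7%. These matches describe letters in a window and say nothing of binding.

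The deposited values are a normalized expression score rounded to whole numbers, running from 11 to 9910 with a median of 106 in every library. The read depth behind the score is unknown and no counting interval could be given. The score is not known to be scaled to gene length either, so levels are compared within a gene and not between genes. High values sat on shared steps: above 1300, 11 steps held all values of the 12 libraries, with 9 to 10 genes on each step below the top one in each library, and 15 of the 60 genes reached this range in at least 1 library against 197 of all 9497. The top step, 9910, was followed by a second at 3449 to 3456, which is a gap of 1.52 on the log2 scale. TUBA1A, which encodes a main alpha tubulin of new neurons, and MAP1B, a MAP of growing axons, read 9910 in all 12 libraries, so no difference in them can be seen. JUN was not lower in the libraries labelled KO: it read 128 to 162 in the 4 WT libraries, 196 to 353 in the 4 KO libraries and 202 to 362 in the 4 OE libraries. Directions below are therefore between the libraries as labelled.

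The 2 libraries of a group differed most in KO. Over the 60 genes, the SD of the log2 difference between the 2 libraries was 0.34 and 0.26 in WT (days 25 and 30), 0.34 and 0.40 in OE, and 0.64 and 0.65 in KO. In KO at day 25, 9 of the 60 genes lay at least 2-fold apart between the libraries (TUBB, TUBB4B, DCLK2, DCX, TUBGCP3, TUBGCP5, TUBGCP6, KIF16B and MAPRE3), against 17.4% of all genes. In KO at day 30, 7 did (TUBA1C, TUBB, TUBGCP4, DPYSL4, KIF17, KIF1C and MAP7D1), against 21.5% of all genes. The counts were 0 and 1 in WT and 0 and 3 in OE. The labels do not say whether the 2 libraries of a group came from separate cultures, so p-values measure the spread between these libraries, which may be technical.

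**Figure D1:**
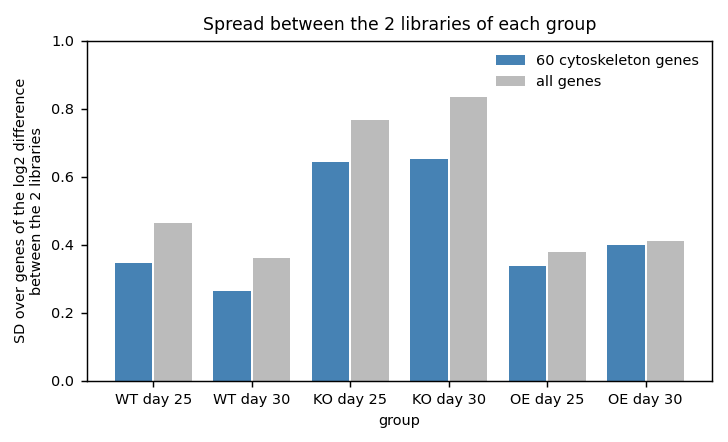
Spread between the 2 libraries of each group (vertical axis: SD of their log2 difference, taken over genes), for the 60 cytoskeleton genes (blue) and all 9497 genes (grey). The KO bars stand at 0.64 and 0.65 for the cytoskeleton genes, above the WT and OE bars, which reach at most 0.40.

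**Figure D2:**
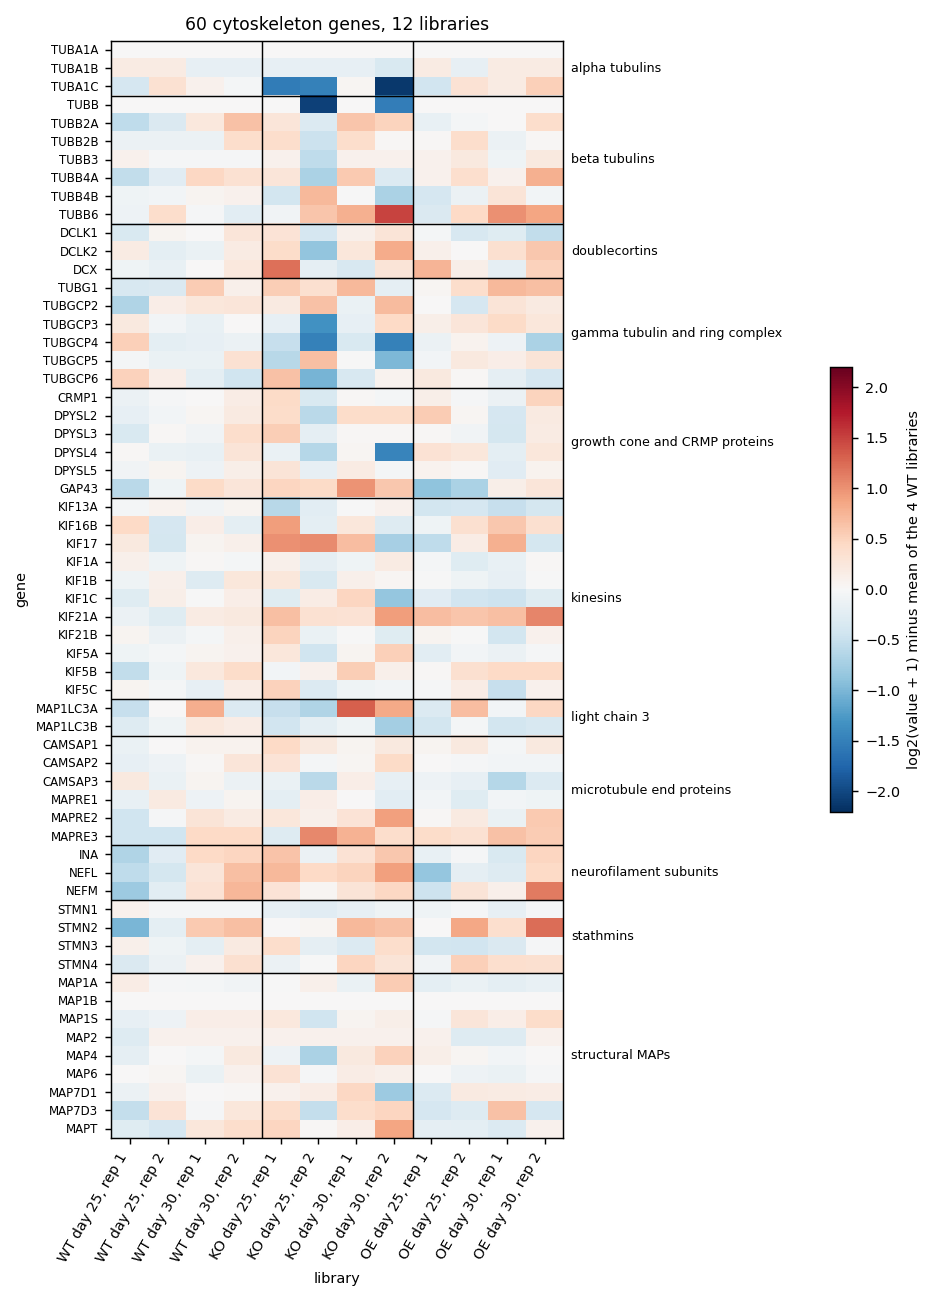
Log2(value + 1) of each of the 60 genes (rows, grouped by role) in each of the 12 libraries (columns), minus the mean of the 4 WT libraries. The deepest blue cells are those of TUBA1C in 3 KO libraries and of TUBB and TUBGCP4 in 2, GAP43 is red in KO and blue in OE at day 25, and KIF21A is red in all KO and OE libraries.

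The comparison of KO with WT asked whether editing JUN went with other levels of these genes. The growth cone gene GAP43 and the neurofilament light chain gene NEFL had the higher values in KO at day 25, and the alpha tubulin gene TUBA1C the lower ones, but none of the 60 genes passed the test. By limma, with Benjamini-Hochberg adjustment over all 9497 genes and a call at an adjusted p under 0.05 with a 2-fold change, 0 of the 60 genes were called over both days, 0 at day 25 and 0 at day 30, where 0.0211%, 0.0105% and 0% of all genes were. At an unadjusted p under 0.05, 4 genes were higher and 4 lower over both days, against 7.01% and 8.16% of all genes. At day 25 these counts were 7 and 4 (6.03% and 7.39% of all genes), and at day 30 they were 2 and 1 (3.43% and 3.93%). At day 25 the shares of the 60 genes were 11.7% higher and 6.67% lower. Over both days 21 of the 60 log2 fold changes were below 0. Those of TUBA1A and MAP1B, at 9910 in every library, were 0, and the others were above 0. The median was 0.08 against -0.02 over all genes. In whole ThOs, fewer cells of a type and less RNA per cell cannot be told apart.

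GAP43 (GRCh38 chromosome 3, 115623510 to 115721490) encodes a membrane protein of the growth cone. At day 25 it read 442 and 629 in WT, 926 and 898 in KO, and 361 and 412 in OE. At day 30 it read 898 and 808 in WT, 1332 and 1014 in KO, and 734 and 808 in OE. Both KO libraries lay above both WT libraries at each day, and above both OE libraries. The KO to WT difference was 0.79 on the log2 scale at day 25 (SE 0.20, adjusted p = 0.184 by limma) and 0.45 at day 30 (SE 0.20, adjusted p = 0.643). Over both days it was 0.62 (SE 0.14, 1.54-fold, adjusted p = 0.173).

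NEFL (chromosome 8, 24950955 to 24956721) encodes the light subunit of neurofilaments. It read 308 and 348 in WT at day 25, 747 and 618 in KO, and 250 and 394 in OE. At day 30 the values were 546 and 720 in WT, 638 and 849 in KO, and 370 and 618 in OE. KO lay clear of WT at day 25 and overlapped it at day 30. The KO to WT difference was 1.05 on the log2 scale at day 25 (SE 0.29, 2.07-fold, adjusted p = 0.203 by limma) and 0.64 over both days (adjusted p = 0.217). INA, which encodes the neurofilament-associated alpha-internexin, read 346 and 460 in WT and 849 and 500 in KO at day 25, a log2 difference of 0.71 (adjusted p = 0.33). NEFM, the medium subunit, read 99 and 148 in WT and 214 and 180 in KO at day 25. All 3 neurofilament genes had a positive difference at day 25 and 1 of 3 at day 30.

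KIF21A (chromosome 12, 39293228 to 39443390) encodes a kinesin that acts at growing microtubule ends near the cell cortex. Its values at day 25 were 265 and 242 in WT, 458 and 366 in KO, and 467 and 442 in OE. Those at day 30 were 328 and 336 in WT, 361 and 552 in KO, and 462 and 610 in OE. All KO and OE libraries lay above the WT libraries of the same day. The KO to WT difference over both days was 0.56 on the log2 scale (SE 0.17, 1.47-fold, adjusted p = 0.197 by limma).

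TUBA1C (chromosome 12, 49188736 to 49274600), an alpha tubulin gene used in many tissues, read 154 and 250 in WT at day 25, 68 and 70 in KO, and 148 and 249 in OE. At day 30 it read 212 and 192 in WT, 206 and 45 in KO, and 226 and 286 in OE. A single KO library at day 30 fell among the WT values and the other 3 KO libraries lay below all WT libraries. The KO to WT difference was -1.27 over both days (log2 scale, SE 0.39, adjusted p = 0.2 by limma) and -1.49 at day 25 (SE 0.55, adjusted p = 0.281). TUBGCP4, a subunit of the gamma tubulin ring complex, read 157 and 94 in WT at day 25 and 76 and 38 in KO, then 96 and 99 in WT at day 30 and 86 and 38 in KO. The KO libraries lay below the WT libraries at both days, with a difference of -0.96 over both days (SE 0.32, adjusted p = 0.22).

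Among the remaining alpha and beta tubulins, several stood on the steps of the score or differed between the KO libraries themselves. TUBB (chromosome 6, 30717435 to 30725538), a beta tubulin gene used in most cells, read 9910 in 10 libraries, 2394 in KO replicate 2 at day 25 and 3456 in KO replicate 2 at day 30. Its log2 difference of -0.89 over both days (SE 0.38, adjusted p = 0.307 by limma) thus came from 2 libraries, and differences among the 10 libraries on the top step cannot be seen. TUBA1B stood on 1 of 3 neighbouring steps in every library, 2396, 2672 to 2674 or 3453 to 3454, so that its KO to WT difference of -0.22 (SE 0.09) was smaller than the gap between the upper pair of these steps, 0.37. TUBB6 read 60 and 85 in WT at day 25 and 62 and 100 in KO, then 64 and 55 in WT at day 30 and 112 and 185 in KO. Its KO to WT difference was 1.26 at day 30 (SE 0.37, adjusted p = 0.643) and 0.70 over both days (SE 0.26, adjusted p = 0.254). TUBB2B, which with TUBB2A and TUBB3 is a beta tubulin of neurons, ranged from 1882 to 3454 and TUBB4A from 64 to 181. TUBB4B ranged from 454 to 1212, both ends being KO libraries.

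TUBB3 (chromosome 16, 89921392 to 89938761), the neuronal beta tubulin, read 1604 and 1466 in WT at day 25, 1606 and 1014 in KO, and 1604 and 1740 in OE. At day 30 it read 1466 in both WT libraries, 1604 and 1608 in KO, and 1410 and 1740 in OE. A single library, KO replicate 2 at day 25, lay apart, and the rest spanned 1410 to 1740. The KO to WT difference over the 4 and 4 libraries was -0.07 on the log2 scale, with a two-sided exact permutation p of 1 (the smallest possible is 0.0286). Without KO replicate 2 at day 25 the difference was 0.10 (adjusted p = 0.627 by limma), which is the opposite sign. MAP2, which marks dendrites, read 2674 in 1 WT library at day 25 and in 1 OE library at each day, and 3456 in the other 9 libraries. DCX, which binds microtubules in migrating new neurons, read 969 and 920 in WT at day 25, 2394 and 895 in KO and 1736 and 1126 in OE, and 804 to 1464 at day 30, with WT, KO and OE overlapping there.

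The other roles gave no gene past the test in KO against WT. Among kinesins 8 of 11 differences over both days were above 0 (median 0.02), and among microtubule end proteins 4 of 6 (0.21). Among stathmins 3 of 4 were above 0 (median 0.11), and among doublecortins 3 of 3 (0.15). Of the 6 genes of gamma tubulin and its ring complex 2 were above 0 (median -0.20). Of the 9 structural MAPs 3 were below 0, MAP1B was at 0 and the others were above 0 (median 0.09). TUBG1 read 94 and 96 in WT and 176 and 153 in KO at day 25 (log2 difference 0.78, SE 0.31, adjusted p = 0.309 by limma), TUBGCP3 92 and 76 against 70 and 31 (-0.83, SE 0.37, adjusted p = 0.367), and MAPT, the axonal MAP tau, 322 and 300 against 538 and 392 (0.56, SE 0.26, adjusted p = 0.372). MAP1LC3B, an autophagosome protein, read 346 and 332 in WT and 276 and 176 in KO at day 30 (-0.62, SE 0.24, adjusted p = 0.643). Genes whose KO libraries lay above the WT libraries at both days were GAP43, KIF21A and the EB protein gene MAPRE2, 3 of 60 against 4.74% of all genes. Those whose KO libraries lay below were TUBGCP4 and STMN1, a stathmin of dividing cells and new neurons, 2 of 60 against 5.6%. No test of the difference in the KO effect between the days passed: 0 of the 60 genes had an adjusted p under 0.05 (0% of all genes), and 0 and 0 an unadjusted p under 0.05 (3.17% higher and 2.46% lower among all genes).

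Leaving out KO replicate 1 at day 30 changed these counts. Then 3 of the 60 genes were called over both days, TUBA1C at -1.82 (adjusted p = 0.00314 by limma), TUBGCP4 at -1.25 (0.0235) and TUBB at -1.27 (0.0472), against 5.66% of all genes. At day 30 alone 3 were called, TUBA1C at -2.14 (0.00801), the CRMP gene DPYSL4 at -1.51 (0.012) and TUBB6 at 1.62 (0.03), against 11.4% of all genes. The remaining KO library at day 30 is then a lone one, taken to vary like the other groups. Leaving out any other library gave 0 called.

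**Figure D3:**
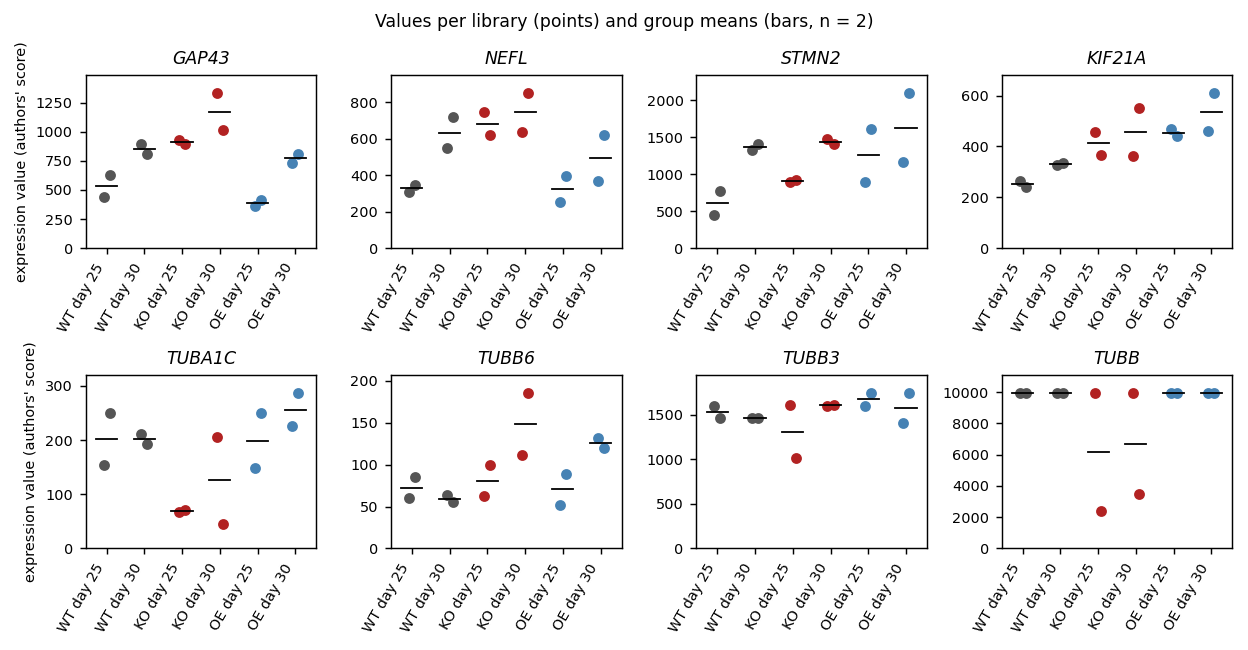
Expression value (vertical axis, the authors' score, starting at 0) of 8 genes in each library (points) with the mean of the 2 libraries of each group (bars), WT in grey, KO in red and OE in blue. GAP43 reads 898 to 1332 in KO and 361 to 808 in OE, and TUBB leaves the ceiling of 9910 in 1 KO library at each day.

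The comparison of OE with KO set ThOs labelled as KO with added c-JUN beside those labelled KO. JUN itself did not separate them, at 196 to 353 in KO and 202 to 362 in OE. GAP43 was lower in OE, past the test at day 25, and NEFL had an adjusted p under 0.05 over both days, while no gene rose past the test. Neither result held under every alternative. At day 25, 1 of the 60 genes was called, GAP43, lower in OE by 2.36-fold (log2 fold change -1.24, SE 0.20, adjusted p = 0.0439 by limma), against 0.274% of all genes. At day 30 the difference was -0.59 (SE 0.20, adjusted p = 0.398) and 0 of the 60 genes were called, against 0.0842%. Over both days 0 were called against 2.22%, and 2 had an adjusted p under 0.05, GAP43 at -0.92 (SE 0.14, adjusted p = 0.0121) and NEFL at -0.87 (SE 0.21, adjusted p = 0.0456), against 3.3% of all genes. The share of the 60 genes was 3.33%, near that background. The result of NEFL was lost (adjusted p up to 0.187) in 11 of 12 fits with 1 library left out, all but that without KO replicate 1 at day 30, and with library weights, no intensity trend or only the libraries compared. That of GAP43 over both days was lost (adjusted p up to 0.0544) without OE replicate 1 at day 25, without OE replicate 2 at day 30 and with only the libraries compared. The call of GAP43 at day 25 was lost (adjusted p from 0.0501 to 0.245) when any 1 of 8 of the 12 libraries was left out: WT replicate 2 or KO replicate 2 at day 25, either WT library at day 30, or any OE library. It was also lost with the replicate number as a block (0.0672), library weights (0.121), no intensity trend (0.0859) and only the libraries compared (0.205). Without KO replicate 1 at day 25, the OE to KO difference at day 25 was 2.05 for TUBB and 1.53 for TUBGCP3. Over both days that of TUBB was then 1.40. The remaining KO library at day 25 is then a lone one, taken to vary like the other groups. TUBB read 9910 in every WT and OE library, so no spread of it can be seen there. Without either KO library of day 30, TUBA1C at 1.46 was called beside GAP43 at day 25, 2 of 60 against 3.55% and 3.59% of all genes in the 2 fits.

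At an unadjusted p under 0.05, 5 genes were higher and 3 lower in OE over both days, against 11.5% and 10.7% of all genes. The counts were 4 and 3 at day 25 (9.31% and 8.5%) and 2 and 4 at day 30 (5.9% and 5.01%). Of the 60 log2 fold changes 26 were above 0 over both days, with a median of -0.02 against 0.01 over all genes. TUBA1C had the largest positive difference, 1.43 over both days (SE 0.39, 2.69-fold, adjusted p = 0.0697 by limma), and its OE libraries (148 to 286) lay above the KO libraries of the same day. The others with a positive difference and an unadjusted p under 0.05 over both days were TUBB at 0.89, TUBGCP4 at 0.75 (SE 0.32, adjusted p = 0.193), DPYSL4 at 0.70 (adjusted p = 0.181) and TUBA1B at 0.32 (adjusted p = 0.0872). MAPT read 336 and 332 in OE at day 25 and 314 and 412 at day 30, below both KO libraries at each day (538 and 392, then 429 and 710), with a difference of -0.54 over both days (SE 0.18, adjusted p = 0.122).

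At day 25, KIF17, a dendritic motor, read 49 and 50 in KO and 16 and 27 in OE (-1.21, SE 0.54, adjusted p = 0.269 by limma), and TUBGCP3 was at 0.95 (SE 0.37, adjusted p = 0.216). At day 30, DCLK1, a doublecortin-like kinase, read 616 and 688 in KO and 474 and 392 in OE (-0.59, SE 0.25, adjusted p = 0.438). Only TUBA1C had OE libraries above the KO libraries at both days, 1 of 60 against 8.5% of all genes. GAP43, NEFL, MAPT and MAP1A, a MAP of mature neurons, had OE libraries below the KO libraries at both days, 4 of 60 against 6.85%.

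Without KO replicate 1 at day 30, 4 of the 60 genes were called over both days in OE against KO: TUBA1C at 1.97, TUBB at 1.27, DPYSL4 at 1.07 and TUBGCP4 at 1.04, against 10.2% of all genes. At day 30 alone TUBA1C at 2.47 and DPYSL4 at 1.47 were then called, against 15.2%. Without KO replicate 2 at day 30, GAP43 at -1.01 (adjusted p = 0.0163 by limma) was called over both days, against 0.653%.

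OE against WT asked whether the OE libraries came back to the WT level. KIF21A had the clearest difference: its 4 OE libraries (442 to 610) all lay above the 4 WT libraries (242 to 336), at 0.76 over both days (log2 scale, SE 0.17, 1.69-fold, adjusted p = 0.14 by limma). Among the 60 genes 0 were called over both days, 0 at day 25 and 0 at day 30, against 0.158%, 0% and 0.0316% of all genes. At an unadjusted p under 0.05, 2 were higher and 1 lower over both days (3.53% and 4.69% of all genes), 3 and 1 at day 25 (1.9% and 2.28%), and 3 and 1 at day 30 (1.5% and 2.58%). STMN2, a stathmin of axon growth, read 445 and 767 in WT and 898 and 1606 in OE at day 25, a difference of 1.04 (SE 0.33, adjusted p = 1), and KIF5B, a kinesin of general transport, 378 and 518 against 564 and 703 (0.51, SE 0.21). GAP43 lay at -0.45 at day 25 (SE 0.20, adjusted p = 1). At day 30 TUBB6 was 64 and 55 in WT and 132 and 120 in OE (1.07, SE 0.37, adjusted p = 0.952), and MAP1LC3B 346 and 332 against 224 and 232 (-0.57, SE 0.24). KIF13A, a motor of endosomes, read 145 to 160 in OE and 194 to 216 in WT, a difference of -0.41 over both days (SE 0.15, adjusted p = 0.486). At both days the OE libraries lay above the WT libraries for TUBG1, KIF21A, KIF5B and MAPRE3, 4 of 60 against 8.04% of all genes, and below them for KIF13A and MAP1A, 2 of 60 against 7.8%. KO and OE are compared with the same WT libraries, and OE against KO shares the KO libraries, so these comparisons are not independent.

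Taken over the 3 genotypes together, the 3 neurofilament genes, GAP43, STMN2 and TUBB2A stood at higher values at day 30 than at day 25. No gene passed the adjusted test. Over the 3 genotypes 0 of the 60 genes were called (0% of all genes). At an unadjusted p under 0.05, 12 of the 60 were higher at day 30 and 0 lower, 20% and 0% of the genes, against 5.76% and 5.54% of all genes. The 12 were GAP43, STMN2, STMN4, NEFL, NEFM, INA, TUBB2A, TUBB6, KIF5B, MAP1LC3A, MAPT and MAP4. Of the 60 log2 fold changes 19 were below 0, those of TUBA1A and MAP1B were 0, and the others were above 0. The median was 0.08 against 0.01 over all genes.

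All 3 neurofilament genes were among the 12, with log2 differences of 0.55 for NEFL (SE 0.17, adjusted p = 0.289 by limma), 0.65 for NEFM (SE 0.21, adjusted p = 0.328) and 0.43 for INA (SE 0.17, adjusted p = 0.391). NEFM read 99 and 148 in WT at day 25 and 216 and 289 at day 30, 214 and 180 then 212 and 238 in KO, and 126 and 211 then 187 and 386 in OE. INA in KO read 849 and 500 at day 25 and 687 and 824 at day 30. The median log2 difference of the 3 neurofilament genes was 0.94 in WT, 0.19 in KO and 0.61 in OE. GAP43 had the smallest p of the 60 genes, with a difference of 0.68 (SE 0.12, 1.6-fold, adjusted p = 0.142). STMN2 had the largest difference, 0.75 (SE 0.19, adjusted p = 0.227). It read 445 and 767 in WT at day 25 and 1332 and 1412 at day 30, 898 and 924 then 1468 and 1408 in KO, and 898 and 1606 then 1159 and 2094 in OE, the OE libraries of the days overlapping. STMN4, another neuronal stathmin, was at 0.35 (SE 0.14).

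TUBB2A (chromosome 6, 3153497 to 3157544) read 505 and 592 in WT at day 25 and 876 and 1158 at day 30, 898 and 600 then 1130 and 1046 in KO, and 660 and 721 then 748 and 972 in OE. Each day 30 library lay above both day 25 libraries of its genotype, and the difference was 0.58 (SE 0.13, adjusted p = 0.201 by limma). KIF5B showed the same order, 378 and 518 then 651 and 733 in WT, 532 and 590 then 808 and 598 in KO, and 564 and 703 then 750 and 748 in OE, at 0.40 (SE 0.12, adjusted p = 0.289). With GAP43 these were the 3 of 60 genes whose day 30 libraries lay above the day 25 libraries in all 3 genotypes, against 1.41% of all genes. None of the 60 (0) had the opposite order, against 1.65%. MAP1LC3A, a light chain 3 gene with values of 16 to 66, was at 0.73 (SE 0.27, adjusted p = 0.368).

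Within the genotypes, the unadjusted counts higher and lower at day 30 were 9 and 1 in WT (2.19% and 2.11% of all genes), 5 and 0 in KO (7.4% and 5.84%) and 2 and 0 in OE (0.727% and 1.17%). In WT the 9 were STMN2 at 1.23 (SE 0.33), NEFM at 1.04, NEFL at 0.94, INA at 0.92, TUBB2A at 0.88, MAPRE3 at 0.87, GAP43 at 0.69, KIF5B at 0.64 and MAPT at 0.63, and TUBA1B was at -0.37, 1 step. The 5 of KO were MAP1LC3A at 1.66, TUBGCP3 at 0.88, TUBB6 at 0.86, MAP4 at 0.78 and TUBB2A at 0.57, and the 2 of OE were GAP43 at 1.00 (SE 0.20) and TUBB6 at 0.88. No gene of these passed the adjusted test, and whether the day effect differs between WT and KO is the comparison of the KO effects above, where 0 of the 60 genes passed.

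**Figure D4:**
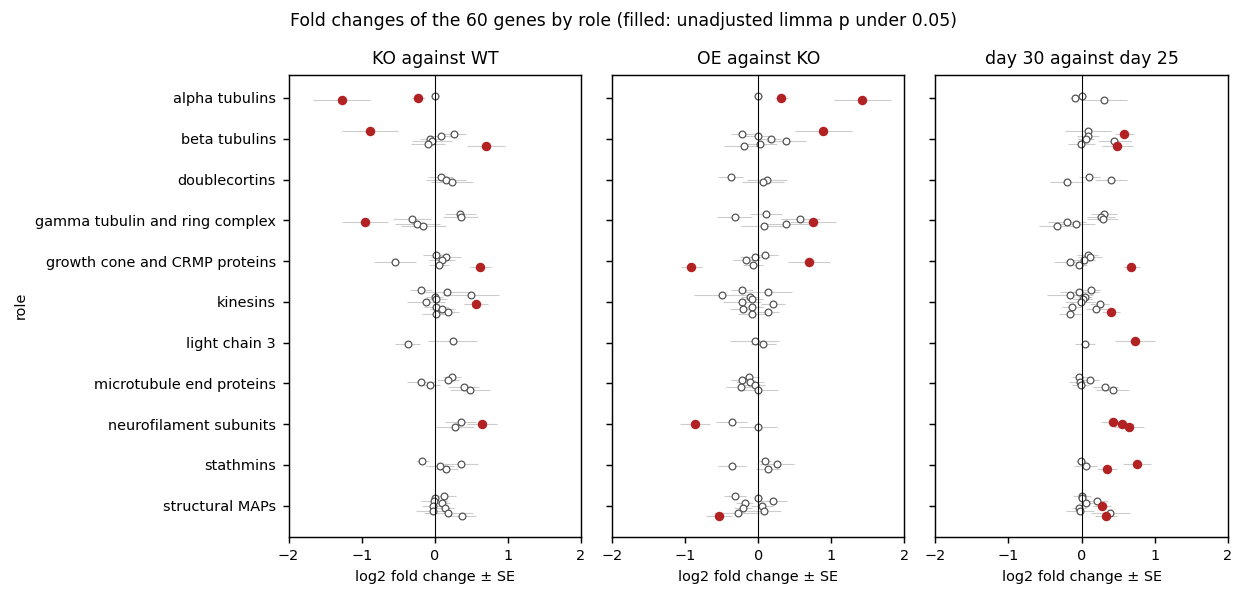
Log2 fold change with its SE (horizontal axis) of each of the 60 genes, by role (vertical axis), for KO against WT and OE against KO over both days and day 30 against day 25 over the 3 genotypes, filled where the unadjusted limma p is under 0.05. In the third panel all 12 filled points lie right of 0, including all 3 neurofilament genes, and in the first the 4 filled points on each side include GAP43 at 0.62 and TUBA1C at -1.27.

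Other genes that serve microtubules were taken from lists written by role. Of 24 genes of tubulin folding and modification 21 were listed, and of these 0 were called in any comparison. VASH1, part of the enzyme that removes the last tyrosine of alpha tubulin, read 330 and 266 in WT, 124 and 120 in KO and 264 and 348 in OE at day 25 (KO to WT -1.27, SE 0.38, adjusted p = 0.21 by limma). Among the 21 listed genes 13 had a positive KO to WT difference at day 25 (median 0.11). Of 21 genes of dynein and dynactin, the motor that walks the other way from most kinesins, 19 were listed and 0 called. BICD1, a dynein adaptor, was at -0.72 in KO against WT over both days (SE 0.18, adjusted p = 0.176). In the same comparison DYNLT1 was at 0.56 (adjusted p = 0.223) and DCTN1 at 0.32 (adjusted p = 0.291). Of the 19 genes 11 had a positive difference (median 0.01). Of 41 other regulators 39 were listed. KIFAP3, the adaptor of the kinesin-2 motor, was called in OE against KO at day 25 (-1.06, SE 0.18, adjusted p = 0.0439). This was 1 of 39 against 0.274% of all genes. KIFAP3 then read 242 and 243 in WT, 500 and 532 in KO and 252 and 243 in OE. At day 30 the order of KO and WT was the opposite, with 432 and 496 in WT, 365 and 401 in KO and 318 and 357 in OE, and the difference of the KO effect between the days was -1.36 (SE 0.25, adjusted p = 0.802). NAV3, which guides growing microtubule ends, was called in OE against KO over both days (-1.02, SE 0.21, adjusted p = 0.0306 by limma). That made 1 of 39 in this comparison, against 2.22% of all genes.

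Cell type markers were read in the same libraries, and 0 of them were called in KO against WT or day 30 against day 25. The summed value of 9 of 12 listed neural progenitor markers ran from 4019 to 6475 in KO at day 25, against 7882 to 14058 in WT and 6945 to 9091 in OE, and at day 30 from 5675 to 7847 in KO, 6827 to 8086 in WT and 7411 to 7476 in OE. These sums, like those below, are led by genes with high values, so 1 gene changing step at the top of the score can move them. The 2 WT libraries of day 25 themselves lay at 14058 and 7882. All 9 had a negative KO to WT difference at day 25 (median -0.94 on the log2 scale). 11 of 12 cycling cell markers summed to 1966 to 2732 in KO over both days, 2471 to 3497 in WT and 3651 to 4068 in OE. Among them 6 had an adjusted p under 0.05 in OE against KO over both days, against 3.3% of all genes. Of these 2 were called, MKI67 at 1.55 and BUB1 at 1.07, against 2.22% of all genes. Also called over both days were the progenitor marker SOX2 at 1.27 (adjusted p = 0.0429 by limma), the neuron markers NHLH1 at 1.69 (0.0422) and SCG2 at -1.04 (0.0196), and CLDN1 of the choroid plexus list at -3.20 (0.00212). CLDN1 was called at each day too, at -3.19 at day 25 and -3.21 at day 30, against 0.274% and 0.0842% of all genes. Of the 6 listed choroid plexus markers, however, 4 had a positive OE to KO difference over both days (median 0.10). The difference was positive in 2 of the 6 at day 25 (median -0.42) and in 4 at day 30 (median 0.43). The marker calls were not refitted under the alternatives used for the 60 genes. Of all genes, 313 had an adjusted p under 0.05 in OE against KO over both days, and 46 with library weights. 6 of 7 multiciliated cell markers, which mark cells whose cilia are themselves bundles of microtubules, summed to 965 and 3100 in the KO libraries at day 25 and 414 to 688 in WT and OE at that day, and overlapped at day 30, with 841 to 967 in KO, 646 to 1053 in WT and 535 to 1274 in OE. 12 of 16 neuron markers chosen outside the 60 genes summed to 1598 to 1761 in WT at day 25, 1748 to 2759 in KO and 2064 to 2201 in OE, and to 2259 to 2522, 1865 to 2166 and 1889 to 2877 at day 30. 6 of 9 choroid plexus markers summed to 1655 to 5173, 2 of 7 mesenchyme markers to 115 to 874 and 1 of 9 astrocyte and oligodendrocyte markers to 40 to 154 over all libraries. Of the thalamus markers 4 of 9 were listed (TCF7L2, LHX9, NTNG1 and SLC17A6), summing to 416 to 1144, while GBX2, OLIG3, LHX2, FOXP2 and CALB2 were not in the tables analysed here. 0 of 5 pluripotency markers were listed. The part of these markers in the differences of the cytoskeleton genes was not tested.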

How the data were processed

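RNA-seq libraries were made by the authors from total RNA of 3 pooled ThOs with an rRNA-depleting, strand-marking kit. The authors deposited 1 table per library, in which each gene has a normalized expression score rounded to whole numbers. Their normalization was not given in the sources used here. The submitters' processing notes name RSEM, Bowtie2, bcl2fastq and hg19, while the positions are on GRCh38. Every library had the same lowest, median and highest value, so a shift of most genes together cannot be seen, and every listed gene read at least 11 in each library. The scores are not counts, so count models were not used. The test was limma (version 3.58.1, R 4.3.3) on log2 of the score plus 1. A filter for a score of 1 or more in 2 libraries removed 0 genes. One mean was fitted for each of the 6 groups to all 12 libraries, with an intensity trend (6 residual and 5.29 prior degrees of freedom), on all 9497 genes. P-values are two-sided and adjusted by Benjamini-Hochberg within each of 11 comparisons. Comparisons of the days within a genotype came from the same fit. Fold changes are on the log2(value + 1) scale. Counts of genes whose libraries do not overlap between groups are descriptions. Named genes were TUBB3, MAP2, DCX, the called genes and, in each comparison, the 3 largest differences per direction at an unadjusted p under 0.05. Others were named after their values were seen. The members and lists were chosen with earlier results of these data known. The fit was tested on simulated data. The 9 ATAC-seq and 2 CUT&Tag samples were not analysed here. Promoters came from RefSeq GRCh38.p14.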

Additional observations from a re-analysis of the deposited data

How the results depend on the processing

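The fold change of TUBB3 in KO against WT kept its direction, as did those of the genes named for the size of their differences. This held under a pseudocount of 0.1 or 5, no filter, a filter on a mean of 50, median centring and quantile normalization. It also held with library weights, no intensity trend and a fit of the compared libraries alone. KIF17 and MAP1LC3A had no value under the mean filter. GAP43 in OE against KO at day 25 was the single call, and its count of 1 became 0 with library weights (adjusted p = 0.121 by limma), no intensity trend (0.0859) and only the libraries compared (0.205). Its log2 fold change stayed between -1.33 and -1.14 over all 22 alternatives, with an adjusted p of 0.0185 to 0.245. Counting an unadjusted p under 0.05 with a 2-fold change gave 1, 3 and 1 genes for KO against WT (both days, day 25, day 30, against 2.08%, 5.31% and 2.94% of all genes), 1, 4 and 1 for OE against KO (4.98%, 8.57% and 5.38%), and 1 and 1 for OE against WT at days 25 and 30 (1.57% and 1.44%). An adjusted p alone gave 2 for OE against KO over both days (3.3% of all genes). With 1 library left out at a time, 0 to 3 genes were called for KO against WT over both days and at day 30, 0 to 4 for OE against KO over both days, 0 to 3 at day 25 and 0 to 2 at day 30, and 0 in the other comparisons. TUBB3 in KO against WT then ran from -0.23 to 0.1, changing sign without KO replicate 2 at day 25 (0.1). With the replicate number as a block, the GAP43 call at day 25 also went from 1 to 0 (adjusted p = 0.0672) and no other call changed. No common deviation of same-numbered libraries was seen (correlations from -0.214 to 0.262, over 0.1 in 1 of 15 pairs of groups). Weak correlations cannot show whether such libraries shared a culture or batch, which the labels do not say. The cause of these changes was not tested. The steps of the score limit what can be seen for genes with high values.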
